A study of Mus musculus with 12 samples.

Results

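The nuclear genes of respiratory chain complexes I to V were followed through mouse embryonic stem cells (ESCs) in 3 states. They were taken from the deposited table by name, after its RefSeq entries had been given gene symbols and summed per symbol: every symbol beginning with Nduf, Uqcr, Cox4 to Cox8 or Atp5, and Sdha, Sdhb, Sdhc and Sdhd. This found 94 of the 23503 genes in the table. By complex these are 45 genes of complex I, 4 of complex II, 8 of complex III, 20 of complex IV and 17 of complex V. By kind they are 83 subunits, 9 assembly factors, 1 pseudogene (Ndufs5-ps) and 1 related factor (Ndufa4l2, a paralogue of Ndufa4). No entry of the mitochondrial chromosome was in the table, so the subunits encoded there were not analysed here. Subunits with other names, such as cytochrome c1 (Cyc1) of complex III, fall outside the rule and are not counted as members.

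RNA-seq had been made from 12 ESC libraries, 4 in each group. The first group is wild type in 2i, a serum-free N2 and B27 medium with 1000 units/mL of LIF (leukaemia inhibitory factor), 3 µM CHIR99021 (a GSK3 inhibitor) and 1 µM PD0325901 (a MEK inhibitor). The second is Tfcp2l1 knockout in the same 2i medium, and the third is wild type in DMEM with 15% FBS (fetal bovine serum) and 1000 units/mL of LIF. The study compared the first group with the second, for transcripts that depend on Tfcp2l1, a transcription factor of the pluripotency network, and with the third, for the medium. Both comparisons use the same 4 wild type libraries in 2i, so their results are not independent and are given side by side. The sources used here do not name the cell line, the number of knockout clones or the deleted part of the gene.

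The respiratory chain passes electrons from NADH (complex I, NADH dehydrogenase) and succinate (complex II, succinate dehydrogenase) through ubiquinone to complex III (cytochrome bc1) and, by cytochrome c, to complex IV (cytochrome c oxidase). Complexes I, III and IV pump protons across the inner mitochondrial membrane, and complex V (ATP synthase) uses their return to make ATP. Each complex other than II combines nuclear subunits with subunits made inside the mitochondrion, and assembly factors help to build the complexes without staying in them.

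Levels are FPKM (fragments scaled by transcript length and by the library's mapped fragments), which are already divided by transcript length, so levels of different genes can be set side by side. They are shares of each library's RNA: in these bulk samples fewer cells of a type and less RNA per cell cannot be told apart. Read depth is not known from FPKM. Differences were tested with limma on log2(FPKM + 1), a scale that understates changes of low genes, and a gene was called when its Benjamini-Hochberg adjusted p over all 12329 genes tested was under 0.05. A gene was tested if it reached 1 FPKM in at least 4 libraries. Of the members 90 passed and 4 did not (Cox6a2, Cox8b, Cox8c and Ndufs5); Cox4i2 and Cox7b2 lay close to that floor. Single values are listed below in the order of the replicate numbers.

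The FPKM total was 347772 to 358340 per library, and 11542 to 11869 genes reached 1 FPKM. All 10 ESC markers listed (such as Pou5f1, Sox2 and Nanog) were expressed, at a summed 3267 to 4964 FPKM. The visceral endoderm list summed to 1.67 to 5.86 FPKM and the parietal endoderm list to 214 to 538 FPKM. Tfcp2l1 measured 133, 143, 112 and 139 FPKM in the wild type 2i libraries, 76.1, 72.01, 82.95 and 84.7 in those of the knockout and 25.8, 37.1, 30.7 and 31.5 in those grown with FBS. The 4 knockout libraries were all below the wild type libraries in 2i and above those in FBS (log2 difference in 2i -0.73 ± 0.10 (SE), adjusted p = 0.000119; a two-sided exact permutation test gave p = 0.0286, the lowest value possible with 70 splits). Gene-level values do not show which exons the remaining transcript holds.

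As a whole the members were highest in wild type in 2i. Their summed FPKM was 14394 to 14932 there, 12444 to 12868 in the knockout and 11449 to 11941 in FBS, so the 3 groups did not overlap. In the knockout 58 of the 90 tested members fell, 1 rose (Cox4i1) and 31 were not called. Of all genes tested 21.4% fell and 24% rose, 45.3% in all. The median log2 difference was -0.20 over the members and 0.01 over all genes tested. In 2i against FBS 61 members were higher in 2i, 8 were lower and 21 were not called, against 37.1% higher and 35.3% lower of all genes tested, 72.4% in all. The median log2 difference was 0.27 over the members and 0.01 over all genes tested. The 4 knockout libraries lay wholly below the 4 wild type ones for 56 members (20.4% of all genes tested), and the 4 libraries in 2i lay wholly above those in FBS for 54 (32% of all genes tested). With a change of at least 1.2-fold required as well, 29 members fell in the knockout (15.2% of all genes tested) and 47 were higher in 2i than in FBS (30.7%).

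**Figure D1:**
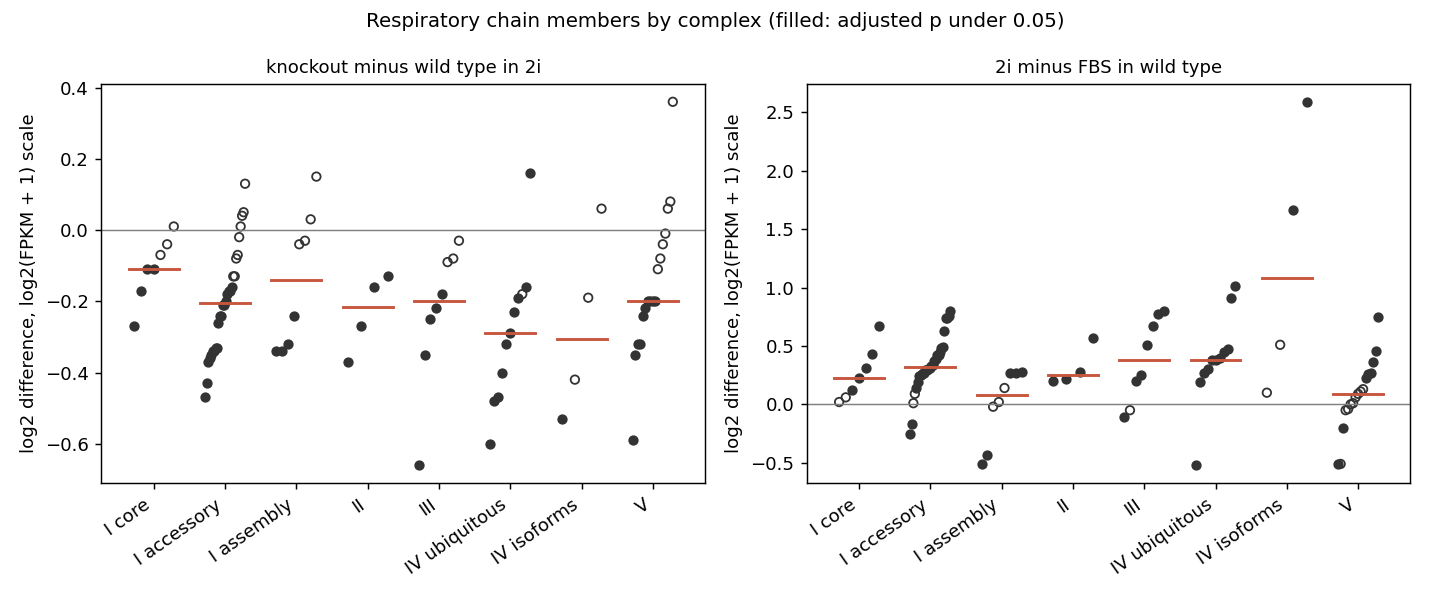
Log2 difference of each tested member, by complex, in knockout minus wild type in 2i (left) and 2i minus FBS in wild type (right), on the log2(FPKM + 1) scale; filled points have a limma adjusted p under 0.05, red lines are medians, and the vertical scales differ. Ndufs5-ps, Ndufa4l2 and Cox7a2l are not drawn. Complex I is split into core, accessory and assembly genes, complex IV into ubiquitous subunits and isoforms, and complexes II, III and V are drawn whole. In the knockout the median of each of these 8 sets lies below 0, from -0.11 for the core subunits of complex I to -0.30 for the complex IV isoforms, and Cox4i1 is the 1 filled point above 0.

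Among the members called in neither comparison were Atp5a1, Atp5j, Atp5md, Atp5o, Cox4i2, Cox7b2, Ndufa10, Ndufa4l2, Ndufaf5 and Ndufs8. Members called in neither came from complexes I, IV and V. Every member of complexes II and III was called in at least 1 comparison, but Cyc1 of complex III, outside the rule, was called in neither. A p that misses the threshold does not show that these were level.

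Other quantities moved with the groups. In the knockout 17 of 20 fibroblast markers rose and 1 fell, against 24% and 21.4% of all genes tested. The 20 summed to 632 to 950 FPKM there, 494 to 608 in wild type in 2i and 257 to 336 in FBS. Between media 11 of them were higher in 2i, 5 were lower and 4 were not called, against 37.1% higher and 35.3% lower of all genes tested. None of the 20 was at 0 throughout. Of the 10 ESC markers 6 fell in the knockout and none rose (summed 3961 to 4150 FPKM against 4266 to 4964). With the fibroblast level of each library as a covariate in limma, 21 members remained lower in the knockout, against 9.04% of all genes tested, and all 59 members called without it kept their direction. Over those 59 the median log2 difference went from -0.26 to -0.24 while the median SE went from 0.05 to 0.09. Those 59 were picked by their call without the covariate. Over all 90 tested members the median went from -0.20 to -0.17. The covariate was the mean log2(FPKM + 1) of the 20 markers, not their sum, and its values are not given here. For 17 of the 20 markers every knockout library lay above every wild type library in 2i, and the summed levels did not overlap either. So genotype and this covariate cannot be fully told apart. With the covariate 2 members were called higher in the knockout, against 6.53% of all genes tested. They were Ndufa12 (log2 0.33, adjusted p = 0.04, limma) and Ndufaf4 (log2 0.31, adjusted p = 0.0473, limma), neither called without it. Between media 58 members were higher and 4 lower with the covariate, against 29.7% and 30.4% of all genes tested. Of the members described below, Sdha, Sdhb, Sdhc, Sdhd, Uqcrh, Cox6b1, Cox7a2, Cox7a2l, Ndufa4, Ndufaf7, Atp5c1, Atp5g1, Atp5g2 and Atp5g3 were no longer called lower in the knockout with it, and Cox4i1 was no longer called higher. The same held between media for Ndufa12, Ndufv3, Ndufaf8, Uqcrfs1 and Atp5e.

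Transcript length also moved with the differences. The tested members are short, with a median of 781 bases against 2814 over all genes tested. Among the other genes those in the shortest of 10 equal bins, up to 1143 bases, had medians of -0.03 in the knockout and 0.11 in 2i against FBS. The 63 members in that bin had medians of -0.20 and 0.27. With a trend in length removed from each library, 49 members fell and 3 rose in the knockout (median -0.15), and 49 were higher and 11 lower in 2i than in FBS (median 0.17). Over all genes tested the same refit called 22.1% lower and 23% higher in the knockout, and 36.7% higher and 35.9% lower in 2i.

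**Figure D2:**
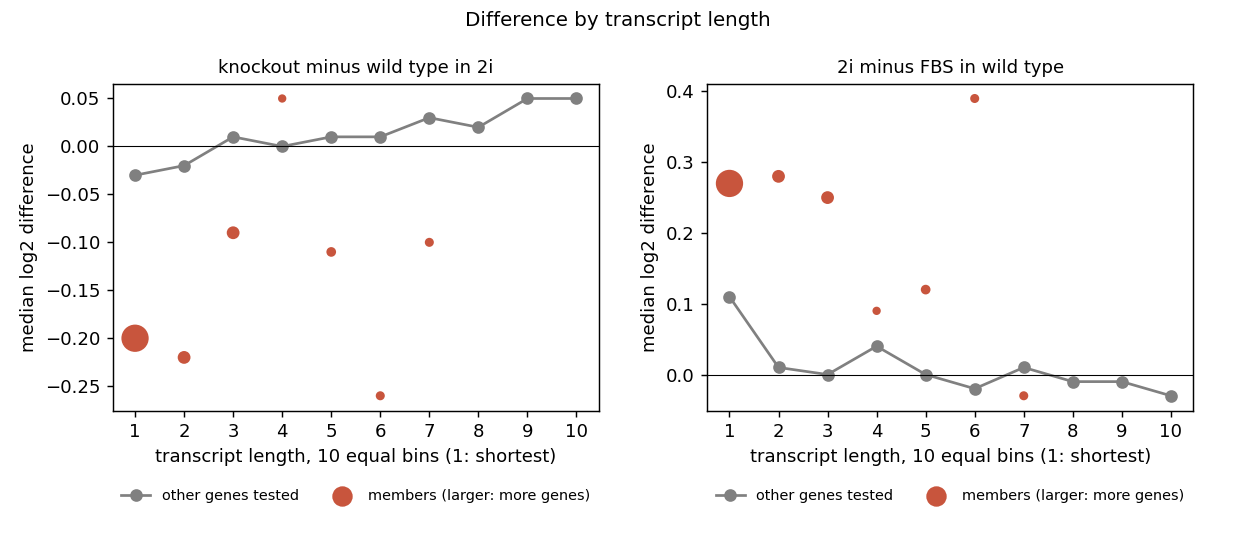
Median log2 difference in 10 bins of transcript length holding equal numbers of genes, for other genes (grey line) and members (red, larger points for more genes), in knockout minus wild type in 2i (left) and 2i minus FBS (right). Bin 1 holds 63 members, at -0.20 and 0.27, where the other genes are at -0.03 and 0.11; bins 4 to 7 hold 1 to 3 members each.

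To show what lies at the starts of the genes that moved most, the promoter windows of 7 members are printed: the member of each complex with the smallest adjusted p among falls in the knockout that has a window in the RefSeq table (Ndufb8, Sdhd, Uqcr11, Cox8a and Atp5k), and Cox7a1 and Cox6b2, which differed most between media. Each runs from 250 bases before the start site to 50 bases from it on, 5′ to 3′ on the gene's strand, in GRCm38.p6, credited to RefSeq. The FPKM table is on mm9, and these coordinates were not used with it. Capitals mark matches, on either strand, to 6 motifs: NRF1 (GCGCA joined to its reverse complement), ETS (CCGGAAG), YY1 (AAGATGGCG), ESRR (AAGGTCA), E-box (CACGTG) and TFCP2L1 (CCAG, any 6 bases, CCAG). The ETS and YY1 letters can share their AAG.
Ndufb8 (chr19:44555393-44555692, minus strand): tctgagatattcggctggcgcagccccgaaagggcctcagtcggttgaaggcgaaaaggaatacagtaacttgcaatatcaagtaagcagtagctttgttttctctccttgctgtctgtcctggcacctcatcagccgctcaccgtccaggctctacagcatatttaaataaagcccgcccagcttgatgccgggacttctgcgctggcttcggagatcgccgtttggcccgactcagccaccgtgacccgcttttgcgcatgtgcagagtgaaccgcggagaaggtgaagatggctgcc
Sdhd (chr9:50603800-50604099, minus strand): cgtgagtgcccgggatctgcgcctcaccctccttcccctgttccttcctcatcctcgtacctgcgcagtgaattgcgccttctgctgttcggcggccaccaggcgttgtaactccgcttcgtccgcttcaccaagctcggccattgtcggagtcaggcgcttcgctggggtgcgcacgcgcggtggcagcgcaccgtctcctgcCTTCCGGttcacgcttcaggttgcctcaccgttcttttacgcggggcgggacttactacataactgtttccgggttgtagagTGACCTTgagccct
Uqcr11 (chr10:80406772-80407071, minus strand): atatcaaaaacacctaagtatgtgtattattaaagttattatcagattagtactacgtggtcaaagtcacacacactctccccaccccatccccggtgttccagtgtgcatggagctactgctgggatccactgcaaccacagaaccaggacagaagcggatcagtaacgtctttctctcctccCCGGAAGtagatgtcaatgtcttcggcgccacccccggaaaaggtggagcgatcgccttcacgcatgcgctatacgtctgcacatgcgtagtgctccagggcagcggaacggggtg
Cox8a (chr19:7217567-7217866, minus strand): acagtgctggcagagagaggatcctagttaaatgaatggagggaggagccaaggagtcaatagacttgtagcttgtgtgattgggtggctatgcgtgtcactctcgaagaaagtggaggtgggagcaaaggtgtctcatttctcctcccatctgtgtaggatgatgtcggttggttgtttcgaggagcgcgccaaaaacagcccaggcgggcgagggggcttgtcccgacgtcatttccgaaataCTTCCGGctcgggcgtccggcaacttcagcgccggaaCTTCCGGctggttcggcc
Atp5k (chr5:108434350-108434649, minus strand): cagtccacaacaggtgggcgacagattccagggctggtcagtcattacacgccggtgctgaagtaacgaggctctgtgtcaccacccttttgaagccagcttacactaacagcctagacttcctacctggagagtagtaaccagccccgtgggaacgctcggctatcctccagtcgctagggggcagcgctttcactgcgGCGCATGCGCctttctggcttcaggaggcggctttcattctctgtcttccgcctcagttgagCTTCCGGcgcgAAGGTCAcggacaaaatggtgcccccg
Cox7a1 (chr7:30183921-30184220, plus strand): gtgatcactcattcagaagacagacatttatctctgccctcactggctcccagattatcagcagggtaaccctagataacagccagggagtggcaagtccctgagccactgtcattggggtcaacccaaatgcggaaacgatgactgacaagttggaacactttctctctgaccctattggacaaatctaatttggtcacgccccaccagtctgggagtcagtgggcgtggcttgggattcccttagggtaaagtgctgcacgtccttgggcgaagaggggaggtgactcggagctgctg
Cox6b2 (chr7:4753045-4753344, minus strand): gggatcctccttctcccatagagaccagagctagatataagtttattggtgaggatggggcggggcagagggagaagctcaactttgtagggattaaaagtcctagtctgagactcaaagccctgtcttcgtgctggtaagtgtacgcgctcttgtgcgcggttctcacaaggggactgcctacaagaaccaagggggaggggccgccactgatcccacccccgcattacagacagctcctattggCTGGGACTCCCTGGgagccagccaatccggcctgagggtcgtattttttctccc

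Sdhd, Uqcr11, Cox8a and Atp5k hold an ETS match. It begins at base -46 from the start site in Sdhd and at -66 in Uqcr11, and Cox8a has a pair, at -5 and 33. Atp5k also holds an NRF1 match at -50 and an ESRR match at 24, and Sdhd an ESRR match at 37. Cox6b2 holds the TFCP2L1 letters at -4, the only member window that does. No letters of these motifs are in the Ndufb8 and Cox7a1 windows, which says nothing of the factors.

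Over the 76 members with a window, ETS letters were in 25% (20.4% of the 9783 tested genes with a window), YY1 in 10.5% (3.69%), ESRR in 10.5% (3.95%), NRF1 in 9.21% (2.32%), E-box in 7.89% (12.1%) and TFCP2L1 in 1.32% (4.33%). Among the 49 members that fell in the knockout, 28.6% held ETS letters, 12.2% YY1, 10.2% ESRR and 6.12% NRF1. Of the 25 tested members that did not fall, 20% held ETS letters, 8% YY1, 8% ESRR and 16% NRF1. The median GC content of the windows was 58.3% for members and 61% for tested genes. These are matches of letters and were not tested.

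Complex I takes electrons from NADH. Its 7 nuclear core subunits form the arm that holds the electron path with its flavin and iron-sulfur clusters, and the accessory subunits surround the core. In the knockout 19 of 28 tested accessory subunits fell (median log2 difference -0.20), 4 of 7 core subunits fell (-0.11), and none of either rose. Against FBS, 24 accessory subunits were higher in 2i and 2 lower (median 0.32), and 5 core subunits were higher and none lower (0.23). Over all genes tested 21.4% fell and 24% rose in the knockout, and 37.1% were higher and 35.3% lower in 2i than in FBS. The difference between core and accessory subunits was not tested.

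Ndufb8, an accessory subunit of the membrane arm (chr19:44624744-44629905 in mm9), measured 222, 224, 224 and 212 FPKM in the wild type 2i libraries, 159, 155, 161 and 161 in those of the knockout and 136, 127, 137 and 128 in those grown with FBS. The 3 groups did not overlap. It fell by 27.9% of its mean in the knockout (log2 -0.47 ± 0.04 (SE), adjusted p = 1.39e-06) and was 1.67-fold higher in 2i than in FBS (log2 0.74 ± 0.04 (SE), adjusted p = 3.51e-09).

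Ndufb6, also of the membrane arm, fell in the knockout (log2 -0.34 ± 0.04 (SE), adjusted p = 4.27e-05) and was higher in 2i than in FBS (log2 0.63 ± 0.04 (SE), adjusted p = 3.46e-08). Among core subunits Ndufv2, an iron-sulfur protein of the NADH-oxidising tip, measured 86.7, 84.3, 89.8 and 83.5 FPKM in the wild type 2i libraries, 69.8, 68.8, 74.8 and 71.1 in those of the knockout and 54.3, 51.3, 54 and 54.9 in those grown with FBS. Again the groups were apart (knockout log2 -0.27 ± 0.04 (SE), adjusted p = 0.000176; 2i minus FBS log2 0.67 ± 0.04 (SE), adjusted p = 1.34e-08). Ndufa7, the complex I subunit of highest mean level over the 12 libraries, had means of 397, 309 and 282 FPKM in the 3 groups and fell in the knockout (log2 -0.36 ± 0.05 (SE), adjusted p = 0.000215).

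The accessory subunits lower in 2i than in FBS were Ndufa12 (log2 -0.25 ± 0.06 (SE), adjusted p = 0.00381) and Ndufv3 (log2 -0.17 ± 0.07 (SE), adjusted p = 0.0404). Ndufv3 was not called without wild type 2i replicate 1 or 3, knockout replicate 1, or FBS replicate 3 or 4 (limma adjusted p 0.0517 to 0.12). Ndufa12 did not overlap between media and was not called in the knockout (log2 0.13 ± 0.06 (SE), adjusted p = 0.116). With the fibroblast covariate it was called higher in the knockout (log2 0.33, adjusted p = 0.04, limma). Ndufa12 has 1 near-identical copy elsewhere in the genome, at 99.5% identity, so its level is uncertain. Ndufb11, singled out after its values were seen, had groups apart between media (log2 0.76 ± 0.07 (SE), adjusted p = 4.86e-07) and overlapping ones in the knockout comparison (log2 -0.07 ± 0.07 (SE), adjusted p = 0.393). Its locus overlaps that of Rbm10 in the table, and the sources used here do not say whether reads were assigned by strand.

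Ndufs5, an accessory subunit, and its pseudogene have near-identical sequences and were singled out after their values were seen. The Ndufs5 entry was at most 1.39 FPKM in all 12 libraries. The Ndufs5-ps accession has a pair of entries, at chr16:42955693-42956192 and at chr4:123389953-123395404, and the second of these lies on the Ndufs5 locus itself. Summed, they measured 109, 111, 106 and 109 FPKM in the wild type 2i libraries, 83.6, 78.1, 85.2 and 83.3 in those of the knockout and 69.6, 68.9, 63.6 and 74.2 in those grown with FBS. That sum fell in the knockout (log2 -0.39 ± 0.05 (SE), adjusted p = 3.53e-05) and was higher in 2i than in FBS (log2 0.65 ± 0.05 (SE), adjusted p = 7.31e-08). The chr16 entry held 71.9 to 75.97 FPKM in wild type 2i, 48.5 to 52.7 in the knockout and 39.9 to 46.7 in FBS. The chr4 entry held 32.1 to 36.8, 29.5 to 33.1 and 23.7 to 27.5 FPKM in the same order, so its genotypes overlapped in 2i. The entries were not tested separately. How much of the sum is Ndufs5 RNA cannot be told from the table.

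Assembly factors of complex I were examined next. Of the 8 Ndufaf genes 4 fell in the knockout and none rose (median log2 difference -0.14), against 21.4% and 24% of all genes tested. Between media 3 were higher and 2 lower in 2i than in FBS (median 0.08), against 37.1% and 35.3%. Ndufaf1, which helps to join the membrane arm, measured 14.1, 13.3, 14.9 and 15.7 FPKM in the wild type 2i libraries, 11.6, 10.9, 11.8 and 11.2 in those of the knockout and 11.9, 12.04, 11.7 and 11.4 in those grown with FBS. The 4 wild type libraries in 2i were above all others (knockout log2 -0.32 ± 0.05 (SE), adjusted p = 0.000371; 2i minus FBS log2 0.28 ± 0.05 (SE), adjusted p = 0.000347).

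Ndufaf8 fell too (log2 -0.34 ± 0.09 (SE), adjusted p = 0.00608), as did Ndufaf7 (log2 -0.34 ± 0.09 (SE), adjusted p = 0.00726), a methyltransferase for which 2i minus FBS was not called (log2 -0.02 ± 0.09 (SE), adjusted p = 0.825). With the fibroblast covariate the Ndufaf7 difference in the knockout was -0.18 and not called (limma adjusted p = 0.481). Ndufaf2, which binds a late assembly intermediate, went the other way between media. It measured 31.1, 33.4, 38.3 and 29.4 FPKM in the wild type 2i libraries, 35.1, 31.4, 34.2 and 34.1 in those of the knockout and 44.4, 49.3, 45.99 and 49.6 in those grown with FBS. The FBS libraries were above all others (2i minus FBS log2 -0.51 ± 0.07 (SE), adjusted p = 3.2e-05), and the knockout overlapped wild type in 2i. Ndufaf4 was also lower in 2i than in FBS (log2 -0.43 ± 0.06 (SE), adjusted p = 2.72e-05), and its knockout libraries lay above wild type in 2i without a call (log2 0.15 ± 0.06 (SE), adjusted p = 0.0632). With the fibroblast covariate Ndufaf4 was called higher in the knockout (log2 0.31, adjusted p = 0.0473, limma).

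All 4 subunits of complex II fell in the knockout and were higher in 2i than in FBS, against 21.4% and 37.1% of all genes tested. With the fibroblast covariate none of the 4 falls was called (limma): the log2 differences were -0.06 for Sdha (adjusted p = 0.598), -0.15 for Sdhb (adjusted p = 0.231), -0.30 for Sdhc (adjusted p = 0.102) and -0.15 for Sdhd (adjusted p = 0.235). The membrane anchors Sdhc and Sdhd had a median log2 difference of -0.32 in the knockout, and the catalytic flavoprotein Sdha and iron-sulfur protein Sdhb had one of -0.14. Sdhc (chr1:173059288-173080734 in mm9) measured 134, 139, 119 and 122 FPKM in the wild type 2i libraries, 101, 102, 94.2 and 100 in those of the knockout and 86.6, 82.8, 95.9 and 79.6 in those grown with FBS. Wild type in 2i was above both other groups (knockout log2 -0.37 ± 0.06 (SE), adjusted p = 0.000531; 2i minus FBS log2 0.57 ± 0.06 (SE), adjusted p = 3.42e-06), which overlapped each other. For Sdhd the log2 difference was -0.27 ± 0.05 (SE), adjusted p = 0.000884 in the knockout. Sdha and Sdhb had the small differences of the complex, at -0.16 ± 0.04 (SE), adjusted p = 0.00689 and -0.13 ± 0.04 (SE), adjusted p = 0.0245. The fall of Sdhb was also not called without wild type 2i replicate 1 (adjusted p = 0.0783), wild type 2i replicate 2 (0.0538) or knockout replicate 1 (0.0822), by limma.

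Complex III consists of the mitochondrially encoded cytochrome b, cytochrome c1, the Rieske protein Uqcrfs1, the core proteins Uqcrc1 and Uqcrc2, and small subunits. All 5 small subunits fell in the knockout (median log2 difference -0.25), against 21.4% of all genes tested. The core proteins and the Rieske protein were not called there. Cytochrome c1 (Cyc1), whose name falls outside the rule, had means of 190, 181 and 191 FPKM in the 3 groups. It was called in neither comparison (knockout log2 -0.07 ± 0.04 (SE), adjusted p = 0.165, and 2i minus FBS log2 0.00 ± 0.04 (SE), adjusted p = 0.932, limma). Uqcr11 (chr10:79865742-79869566 in mm9) had the steepest called fall of any member. It measured 53.5, 50.6, 53.4 and 51.9 FPKM in the wild type 2i libraries, 32.5, 30.01, 33.3 and 35.1 in those of the knockout and 29.3, 30.9, 27.99 and 30.5 in those grown with FBS. The knockout and FBS libraries lay close together and overlapped, and every wild type library in 2i was above them. Its mean fell by 37.5% in the knockout (log2 -0.66 ± 0.05 (SE), adjusted p = 1e-06) and was 1.76-fold higher in 2i than in FBS (log2 0.80 ± 0.05 (SE), adjusted p = 2.21e-08).

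Uqcr10, a small subunit of much higher level, measured 418, 402, 448 and 382 FPKM in the wild type 2i libraries, 316, 301, 339 and 341 in those of the knockout and 234, 233, 246 and 252 in those grown with FBS. The 3 groups did not overlap (knockout log2 -0.35 ± 0.06 (SE), adjusted p = 0.000338; 2i minus FBS log2 0.77 ± 0.06 (SE), adjusted p = 7.35e-08). Uqcrb fell likewise (log2 -0.25 ± 0.05 (SE), adjusted p = 0.00282). Uqcrh, the hinge protein, singled out after its values were seen, fell in the knockout (log2 -0.18 ± 0.05 (SE), adjusted p = 0.0115) and was not called between media (log2 -0.05 ± 0.05 (SE), adjusted p = 0.355).

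The catalytic Rieske protein, which hands electrons to cytochrome c1, was not called in the knockout. Uqcrfs1 measured 78.3, 72.7, 76.5 and 76.8 FPKM in the wild type 2i libraries, 75.1, 73.9, 73.2 and 75.8 in those of the knockout and 79.5, 80.97, 88.4 and 80.3 in those grown with FBS. Its knockout values overlapped wild type in 2i (log2 -0.03 ± 0.04 (SE), adjusted p = 0.582), and the FBS libraries were all above those in 2i (2i minus FBS log2 -0.11 ± 0.04 (SE), adjusted p = 0.0263), a difference not called without wild type 2i replicate 2 (adjusted p = 0.0781, limma) or FBS replicate 3 (0.0687). The core proteins Uqcrc1 and Uqcrc2 had log2 differences of -0.09 and -0.08 in the knockout, both with an SE of 0.04 and with all knockout libraries below all wild type ones, and neither was called.

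Complex IV reduces oxygen. Its catalytic subunits are mitochondrially encoded, and its nuclear subunits regulate and stabilise them. Several come as alternative isoforms, some known for a tissue: Cox7a1 for heart and skeletal muscle, Cox6b2 for testis, Cox4i2 for lung. Of the 11 ubiquitous subunits 9 fell in the knockout, 1 rose and 1 was not called (median log2 difference -0.29), and 10 were higher and 1 lower in 2i than in FBS (median 0.38). Over all genes tested 21.4% fell and 24% rose, and 37.1% were higher and 35.3% lower. Ndufa4, named for complex I but a subunit of complex IV, is counted here.

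Cox8a (chr19:7289648-7292106 in mm9), the complex IV subunit of highest mean level over the 12 libraries (in FBS Cox4i1 was higher), measured 882, 937, 788 and 831 FPKM in the wild type 2i libraries, 558, 552, 584 and 567 in those of the knockout and 440, 450, 481 and 448 in those grown with FBS. All 3 groups were apart. The mean fell by 34.3% in the knockout (log2 -0.60 ± 0.05 (SE), adjusted p = 3.06e-06) and was 1.89-fold higher in 2i than in FBS (log2 0.91 ± 0.05 (SE), adjusted p = 1e-08). Cox6c fell by 27.9% (log2 -0.47 ± 0.04 (SE), adjusted p = 3.55e-06), with knockout and FBS values close to each other. Cox7c fell as well (log2 -0.48 ± 0.07 (SE), adjusted p = 0.000128).

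Cox5a, a structural subunit, differed most between media among the ubiquitous subunits. It measured 525, 510, 553 and 516 FPKM in the wild type 2i libraries, 394, 395, 440 and 456 in those of the knockout and 254, 260, 265 and 268 in those grown with FBS. The groups were apart in the order wild type 2i, knockout, FBS (knockout log2 -0.32 ± 0.05 (SE), adjusted p = 0.00031; 2i minus FBS log2 1.01 ± 0.05 (SE), adjusted p = 3.74e-09, a 2.01-fold difference of means).

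Cox4i1, a subunit that joins early in the assembly of the complex, went against the rest. It measured 495, 478, 503 and 477 FPKM in the wild type 2i libraries, 535, 539, 551 and 550 in those of the knockout and 642, 739, 694 and 721 in those grown with FBS. The order of the groups was reversed and they did not overlap. Its mean was 11.5% higher in the knockout than in wild type in 2i (log2 0.16 ± 0.04 (SE), adjusted p = 0.0121) and lower in 2i than in FBS (log2 -0.52 ± 0.04 (SE), adjusted p = 3.58e-07). The rise in the knockout was not called with median-ratio scaling (log2 0.13, adjusted p = 0.0592, limma) or with the fibroblast covariate (0.19, adjusted p = 0.135, limma), and the fall against FBS was called in every alternative run.

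Among alternative isoforms, Cox7a1 (chr7:30969190-30971049 in mm9) differed most between media of all members. It measured 143, 135, 159 and 174 FPKM in the wild type 2i libraries, 89.5, 100, 125 and 109 in those of the knockout and 21.1, 22.1, 29.8 and 25.5 in those grown with FBS. The groups were apart, with a mean 6.20-fold higher in 2i than in FBS (log2 2.59 ± 0.12 (SE), adjusted p = 1.7e-09), and a fall by 30.6% in the knockout (log2 -0.53 ± 0.12 (SE), adjusted p = 0.00354). Its counterpart Cox7a2 measured 197, 194, 172 and 175 FPKM in the wild type 2i libraries, 152, 154, 174 and 166 in those of the knockout and 158, 157, 165 and 166 in those grown with FBS. That gene moved little (knockout log2 -0.19 ± 0.06 (SE), adjusted p = 0.013; 2i minus FBS log2 0.19 ± 0.06 (SE), adjusted p = 0.00715). Cox7a1 was 45.2% ± 4.34 (SD, n = 4) of the summed FPKM of the pair in the wild type 2i libraries, 39.5% ± 2.00 in the knockout's and 13.2% ± 1.55 in FBS. The summed level of the pair was 329 to 349 FPKM, 242 to 299 FPKM and 179 to 195 FPKM in the same order.

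Cox6b2 (chr7:4703396-4704696 in mm9) showed a difference between media and none called in the knockout. It measured 180, 170, 164 and 178 FPKM in the wild type 2i libraries, 191, 183, 170 and 178 in those of the knockout and 55.8, 51.03, 73.1 and 41.3 in those grown with FBS. The 2i libraries of both genotypes overlapped (knockout log2 0.06 ± 0.12 (SE), adjusted p = 0.72), and all 8 lay above FBS (2i minus FBS log2 1.66 ± 0.12 (SE), adjusted p = 9.76e-08, a 3.13-fold difference of means). Its counterpart Cox6b1 fell in the knockout (log2 -0.16 ± 0.04 (SE), adjusted p = 0.00643) and was higher in 2i than in FBS (log2 0.47 ± 0.04 (SE), adjusted p = 3.47e-07). The Cox6b2 share of the pair was 27.9% ± 0.798 (SD, n = 4), 31.1% ± 1.63 and 14.6% ± 3.30 in the 3 groups. Its promoter window is the one with the TFCP2L1 letters.

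Markers of striated muscle and of spermatogenic cells were low; lung markers were not examined. The 10 striated muscle markers summed to 18.0 to 20.9 FPKM in the wild type 2i libraries, 19.5 to 23.0 in the knockout's and 11.4 to 17.2 in FBS, and 6 of them never reached 1 FPKM. Of the 4 muscle markers tested, 1 fell and 0 rose in the knockout, against 21.4% and 24% of all genes tested. Between media 2 were higher and 1 lower in 2i than in FBS, against 37.1% and 35.3%. The marker that fell, Tnni3, had means of 6.35, 4.29 and 2.82 FPKM in the 3 groups. The 8 spermatogenic markers summed to 0.538 to 1.40 FPKM, 7 never reached 1 FPKM and 1 was at 0 throughout. The other isoforms were minor: Cox4i2 was 0.205% to 0.373% of the Cox4 pair on average per group, and Cox7b2 1.10% to 1.74% of the Cox7b pair. Cox6a2, Cox8b and Cox8c were under the filter, all at a mean of at most 0.709 FPKM in each group.

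Ndufa4 measured 538, 589, 422 and 570 FPKM in the wild type 2i libraries, 400, 422, 384 and 384 in those of the knockout and 431, 435, 340 and 417 in those grown with FBS. The knockout libraries were below all wild type libraries in 2i, though only just below replicate 3, the lowest of these (log2 -0.40 ± 0.10 (SE), adjusted p = 0.0063), while 2i and FBS overlapped (log2 0.38 ± 0.10 (SE), adjusted p = 0.00454). Its paralogue Ndufa4l2 was called in neither comparison. Cox7a2l, which joins complexes III and IV into supercomplexes, fell in the knockout (log2 -0.16 ± 0.06 (SE), adjusted p = 0.0458), which was not called on leaving out any 1 of wild type 2i replicates 1 to 3, the 4 knockout replicates or FBS replicate 2 (limma adjusted p 0.0517 to 0.111), and was not called between media (log2 0.05 ± 0.06 (SE), adjusted p = 0.44).

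**Figure D3:**
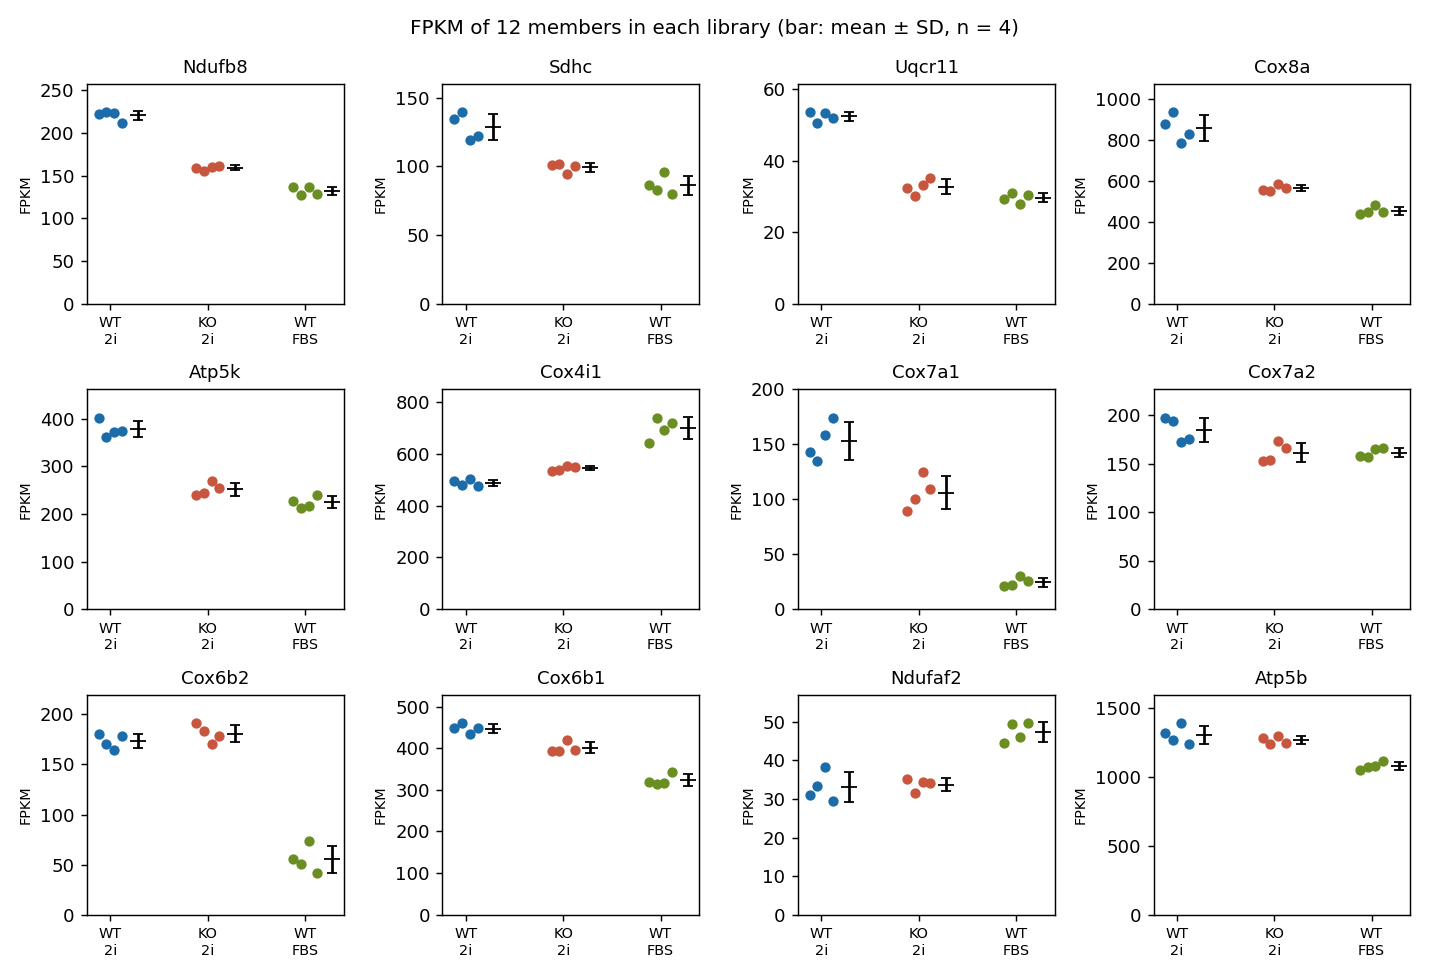
FPKM of 12 members in each library (points) with mean ± SD (n = 4) beside them, grouped as wild type 2i (WT 2i), knockout 2i (KO 2i) and wild type FBS (WT FBS); every axis starts at 0. Ndufb8, Sdhc, Uqcr11, Cox8a and Atp5k are highest in wild type in 2i, Cox4i1 and Ndufaf2 are highest in FBS, Cox7a1 and Cox6b2 drop in FBS, to means of 24.6 and 55.3 FPKM, and Atp5b overlaps between the genotypes in 2i.

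Complex V joins an F1 head, which makes ATP, to a membrane part with the rotating c-ring, held by a peripheral stalk. In the knockout 10 of its 17 subunits fell and none rose (median log2 difference -0.20): 2 of 5 of the F1 head with its central stalk, all 3 c-ring genes, 2 of 4 of the peripheral stalk and 3 of 5 membrane accessory subunits. Over all genes tested 21.4% fell and 24% rose in the knockout. Between media 6 subunits were higher in 2i, 2 were lower and 9 were not called (median 0.09), against 37.1% higher and 35.3% lower of all genes tested. Whether this differs from the other complexes was not tested.

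Atp5k (chr5:108862272-108863397 in mm9), subunit e of the membrane part, which links synthase dimers, measured 402, 362, 373 and 375 FPKM in the wild type 2i libraries, 239, 243, 270 and 254 in those of the knockout and 228, 212, 217 and 241 in those grown with FBS. Wild type in 2i was above all other libraries. The mean fell by 33.4% in the knockout (log2 -0.59 ± 0.05 (SE), adjusted p = 3.86e-06) and was 1.68-fold higher in 2i than in FBS (log2 0.75 ± 0.05 (SE), adjusted p = 5.59e-08). Atp5j2, subunit f, fell as well (log2 -0.35 ± 0.05 (SE), adjusted p = 0.000109) and was higher in 2i than in FBS (log2 0.36 ± 0.05 (SE), adjusted p = 2.04e-05).

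The catalytic β subunit Atp5b had the highest level of all members, at 1320, 1271, 1392 and 1244 FPKM in the wild type 2i libraries, 1287, 1243, 1303 and 1251 in those of the knockout and 1050, 1073, 1084 and 1120 in those grown with FBS. The knockout overlapped wild type in 2i (log2 -0.04 ± 0.04 (SE), adjusted p = 0.482), and the 2i libraries were all above FBS (log2 0.27 ± 0.04 (SE), adjusted p = 7.74e-05). Atp5a1, its α partner, was called in neither comparison (log2 0.06 ± 0.04 (SE), adjusted p = 0.295 in the knockout; 0.00 ± 0.04 (SE), adjusted p = 0.972 for 2i minus FBS). Atp5c1, the γ subunit of the central stalk, fell in the knockout (log2 -0.24 ± 0.04 (SE), adjusted p = 0.000439) and was not called between media (log2 -0.04 ± 0.04 (SE), adjusted p = 0.349).

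The c-ring protein is encoded by Atp5g1, Atp5g2 and Atp5g3, which give the same mature protein. All of them fell in the knockout, with log2 differences of -0.32 ± 0.08 (SE), adjusted p = 0.00586, -0.20 ± 0.04 (SE), adjusted p = 0.00183 and -0.20 ± 0.05 (SE), adjusted p = 0.00332. With the fibroblast covariate none of these falls was called (limma adjusted p = 0.112, 0.0919 and 0.285). Between media Atp5g1 was called and the other two were not (Atp5g1 log2 0.46 ± 0.08 (SE), adjusted p = 0.000202). Atp5g3 supplied 69.5% to 71.2% of their summed FPKM on average per group, and Atp5g1 11.7%, 10.8% and 9.34% in the 3 groups. Atp5g1 has 1 near-identical copy elsewhere in the genome (99.8% identity) and Atp5g2 has 2 (up to 100%), while none was found for Atp5g3. Reads of Atp5g1 and Atp5g2 may be divided with those copies, so these shares are uncertain.

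Atp5l, subunit g and a neighbour of Atp5k in the enzyme, was lower in 2i than in FBS. It measured 25.99, 24.7, 24.8 and 27.9 FPKM in the wild type 2i libraries, 21.9, 26.4, 26.9 and 27.4 in those of the knockout and 35.5, 38.2, 33.6 and 41.9 in those grown with FBS. The FBS libraries were above all others (2i minus FBS log2 -0.51 ± 0.08 (SE), adjusted p = 7.94e-05), and the knockout overlapped wild type in 2i. Atp5l has 9 near-identical copies elsewhere in the genome, at up to 100% identity, so reads may be divided among them and its level is uncertain. Atp5e, the ε subunit, was also lower in 2i (log2 -0.20 ± 0.07 (SE), adjusted p = 0.0168), with overlapping groups. Atp5md, a small membrane subunit singled out after its values were seen, measured 1.62, 13.8, 14.8 and 14.2 FPKM in the wild type 2i libraries, 9.85, 12.1, 12.6 and 12.2 in those of the knockout and 12.4, 11.4, 14.3 and 14 in those grown with FBS. Wild type replicate 1 in 2i stood far below the other 11 libraries. With it the knockout difference was 0.36 ± 0.45 (SE), adjusted p = 0.532, and without it -0.27 with an adjusted p of 0.0331 (limma). The Atp5md locus overlaps that of Taf5 in the table.

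**Figure D4:**
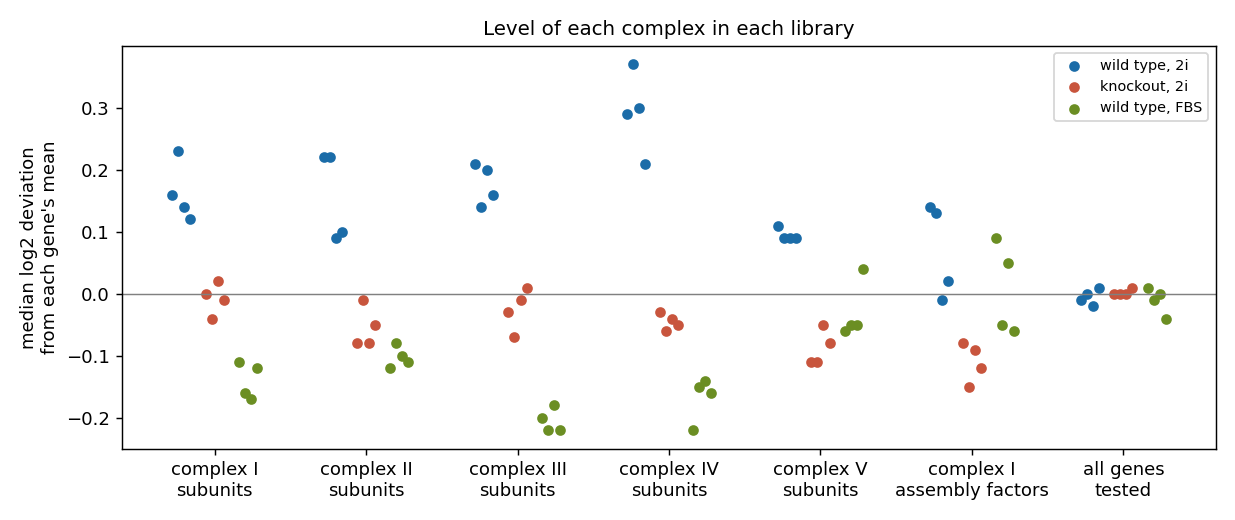
Median over the tested genes of each set of the log2 deviation from the gene's own mean over 12 libraries, 1 point per library, coloured by group. For the subunits of complexes I to V each wild type library in 2i is above each knockout library; complex IV runs from 0.21 to 0.37 for the wild type 2i libraries, -0.06 to -0.03 for the knockout and -0.22 to -0.14 for FBS, while for complex V the knockout is at -0.11 to -0.05 and FBS at -0.06 to 0.04.

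Genes that work with the members were examined as 4 lists; of all genes tested 21.4% fell and 24% rose in the knockout, and 37.1% were higher and 35.3% lower in 2i than in FBS. Of 11 cytochrome c, electron-transfer and linked genes, 4 fell and 1 rose in the knockout, and 6 were higher and none lower in 2i than in FBS (median log2 differences -0.08 and 0.19). Of 51 tested assembly factors whose names fall outside the rule, 16 fell and 4 rose, and 21 were higher and 10 lower in 2i (medians -0.08 and 0.13). Cox17, Sco1, Sco2 and Aifm1 are on both of these lists, so the counts overlap. Sco1 and Aifm1 are among the falls of each. Pet100, a complex IV assembly factor, had means of 10.4, 6.42 and 5.48 FPKM in the 3 groups (knockout log2 -0.63 ± 0.10 (SE), adjusted p = 0.000335).

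Of 27 tested genes of mitochondrial biogenesis and mtDNA expression, 5 fell and 2 rose in the knockout, while 3 were higher and 13 lower in 2i than in FBS (medians -0.04 and -0.12). Tfam, the mtDNA packaging and transcription factor, had means of 16.0, 16.5 and 25.4 FPKM (2i minus FBS log2 -0.63 ± 0.05 (SE), adjusted p = 1.03e-07). Of 28 protein import genes 7 fell and 3 rose in the knockout, and 5 were higher and 13 lower in 2i (medians -0.09 and -0.07). Timm21, an inner membrane import subunit, had means of 1.87, 3.76 and 8.80 FPKM, lowest in wild type in 2i (knockout log2 0.74 ± 0.09 (SE), adjusted p = 3.54e-05). So the median of the biogenesis and of the import list lay on the other side of 0 from the members' 0.27 in 2i against FBS; this difference was not tested.

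Many members have near-identical copies elsewhere in the genome, and reads can then be divided among places. Of 93 members matched to a GENCODE vM21 transcript, 22 had a copy of at least 95% identity over at least 200 bases at another locus, most of them pseudogenes. That criterion was chosen after seeing the hits: the first one, 95% identity over 80% of the transcript, found 1 member. Among the 76 subunits that are not tissue-restricted isoforms and were matched, the 21 with a copy had a median level of 62.4 FPKM and the 55 without one 118 FPKM. Below 30 FPKM, a level also chosen after seeing the values, lay 7 of the 21 (Atp5h, Atp5l, Cox5b, Ndufab1, Ndufb4, Ndufs3 and Ndufs5) and 2 of the 55 (Atp5md and Ndufa11). Levels of all members with a copy are uncertain to that extent, and so are the isoform shares that rest on Atp5g1, Atp5g2 or Cox7b. The median log2 difference was -0.22 with a copy and -0.19 without in the knockout, and 0.29 and 0.28 in 2i against FBS. Without the members that have a copy and the unmatched Ndufs5-ps, 41 fell and 1 rose in the knockout, and 46 were higher and 6 lower in 2i than in FBS. The shares of all genes tested were 21.4% and 24%, and 37.1% and 35.3%, in that order.

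**Figure D5:**
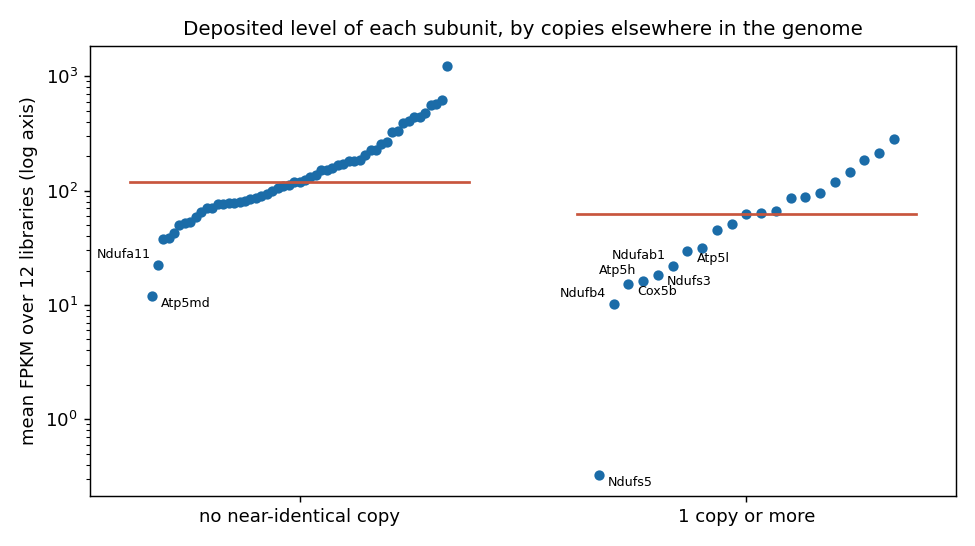
Mean FPKM over 12 libraries (log axis) of the 76 subunits that are not tissue-restricted isoforms, ordered by level, without (left) and with (right) a near-identical copy at another locus; red lines are the medians, 118 and 62.4 FPKM. Members under 30 FPKM are named, and Ndufs5, whose locus carries a second entry under the pseudogene's accession, stands lowest at 0.324 FPKM.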

How the data were processed

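RNA-seq of 12 mouse ESC libraries was used, 4 per group, grouped by the labels. The submitters' processing notes name CASAVA 1.8.2, Cufflinks and build mm9; the sources used here give no aligner and no Cufflinks version. As deposited by the authors, the table holds FPKM per RefSeq transcript with bounds and a status. Of 30761 entries 98.8% were given a symbol from RefSeq and GENCODE vM21 tables and summed to 23503 genes (unnamed entries were kept by ID); 7 genes with a failed estimate were left out, none of them members. FPKM keep no read depth, so no count test was run and the library totals do not give the precision. limma 3.58.1 in R 4.3.3 was fitted to log2(FPKM + 1) of 12329 genes (at least 1 FPKM in at least 4 libraries), with 1 mean per group over all 12 libraries, eBayes with a trend, two-sided tests and Benjamini-Hochberg adjustment; adjusted p-values are limma's throughout. The fit was tested on simulated data. Nothing in the labels says that a group's libraries are separate cultures, so a p-value reflects the spread among these libraries alone, and that spread may be technical. The members, gene lists, tests and naming rule were chosen with earlier results of these data known. Named were the targeted gene, up to 3 members of smallest adjusted p per complex, comparison and direction with groups apart, the highest-level member of each complex and the highest called in neither, members against their complex's majority, all alternative isoforms, and up to 3 genes per other list and comparison; 6 more (Atp5md, Ndufb11, Ndufs1, Ndufs5, Ndufs5-ps and Uqcrh) were chosen after their values were seen, and 1 member that the rule names is not reported here. Group differences are also not printed for every gene so named, as for Cox6a1, Cox7b and most genes of the other lists. The alternatives were other pseudocounts, filters, scalings, eBayes settings and thresholds, a replicate block, a length trend, a fibroblast covariate, the highest entry per symbol, and leaving out libraries or members. Python 3.11.15, numpy 2.4.6, pandas 2.3.3 and matplotlib 3.10.9 were used.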

Additional observations from a re-analysis of the deposited data

Results flagged for a closer look

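Within each group of 4 libraries, a library was picked out when its gap to the nearest of the others over the group's range exceeded Dixon's 95% critical value. This picked out 20 of the 226 groups of values checked over 76 named genes; chance picks out about 1 in 20 groups. Atp5md was at 1.62 FPKM in wild type in 2i replicate 1 (others 13.8 to 14.8) and at 9.85 FPKM in the knockout replicate 1 (others 12.1 to 12.6). Ndufa4l2 was at 19.7 FPKM in FBS replicate 3 (others 6.68 to 8.76). Ndufs5 was at 1.22 FPKM in wild type in 2i replicate 2 (others 0.000191 to 0.000212). Cox8b was at 0.313 FPKM in wild type in 2i replicate 2 (others at 0) and at 0.169 FPKM in FBS replicate 3 (others at 0). In these 4 genes the single library stands apart by several FPKM or the values are near 0.

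The others differ from their group by a small share of the level. Among members, Cox6b1 was at 420 FPKM in the knockout replicate 3 (others 393 to 395) and at 344 FPKM in FBS replicate 4 (others 314 to 318). Cox7c was at 51.1 FPKM in the knockout replicate 2 (others 56.1 to 56.8). Ndufaf3 was at 14.5 FPKM in wild type in 2i replicate 4 (others at 15.2). Sdhd was at 98.6 FPKM in FBS replicate 3 (others at 104). Uqcrfs1 was at 88.4 FPKM in FBS replicate 3 (others 79.5 to 81). Among genes of the other lists, Etfb was at 84.7 FPKM in FBS replicate 4 (others 71.4 to 73.6). Gfm1 was at 29.1 FPKM in the knockout replicate 4 (others 30.5 to 30.8). Hspe1 was at 138 FPKM in wild type in 2i replicate 3 (others at 142). Lrpprc was at 23.3 FPKM in the knockout replicate 2 (others 25 to 25.3). Mrrf was at 8.24 FPKM in FBS replicate 3 (others 7.65 to 7.74). Sco1 was at 6.79 FPKM in FBS replicate 2 (others 6.46 to 6.5). Timm8a1 was at 36.1 FPKM in the knockout replicate 4 (others 39.8 to 40.5) and at 48.2 FPKM in FBS replicate 3 (others 54.6 to 55).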

How the results depend on the processing

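The counts of members lower in the knockout (58) and higher in 2i than in FBS (61) kept within 1.5 times in every alternative run but these: with the fibroblast covariate 21 fell in the knockout, and at 1.2-fold or more 29 did. Of all genes tested 9.04% and 15.2% fell in those runs. Leaving out 1 library at a time gave 51 to 60 lower in the knockout, 59 to 65 higher and 6 to 8 lower in 2i than in FBS. Over all genes tested the same refits called 17.7% to 23.2% lower in the knockout. Between media they called 35.5% to 37.8% higher and 33.3% to 35.2% lower in 2i. The 8 members lower in 2i became 4 with the covariate, 5 at an adjusted p under 0.01 and 4 at 1.2-fold. The shares of all genes tested were 30.4%, 30.5% and 28.3% in that order. The 1 member higher in the knockout became 0 with median-ratio scaling, at an adjusted p under 0.01 and at 1.2-fold, 2 with no filter, in a fit of 8 libraries alone, without the eBayes trend and with the covariate, 3 with quantile normalization, TPM or the length trend removed, 4 with array weights, and 1 to 2 on leaving out 1 library (2 without FBS replicate 4). The share of all genes called higher in those runs went from 6.53% (covariate) to 31.1% (array weights). The 2 members with the covariate were Ndufa12 and Ndufaf4, and Cox4i1 was not among them. Without Ndufa4, Ndufa5, Ndufa9 and Ndufb2, the members on chromosome 6, 54 fell in the knockout and 57 were higher in 2i. The shares of all genes tested were 21.4% and 37.1%. Over all genes, calls in the knockout comparison were 2954 higher and 2635 lower (52.9% higher), 47.3% higher with median-ratio scaling, and 805 higher and 1114 lower (41.9% higher) with the covariate. Excluding members with a copy was chosen after seeing the data. Tfcp2l1 fell in every alternative run (log2 -0.81 to -0.69).

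Pairing by replicate number was checked: deviations of same-numbered libraries correlated at -0.0295 to 0.258, not all over 0.1, and not every library correlated best with its own number. Between wild type in 2i and the knockout, replicates 1, 2, 3 and 4 correlated with their own number at 0.0554, 0.258, 0.216 and 0.194. For replicates 2, 3 and 4 these were the best matches between those groups. Whether same-numbered libraries share more than a number cannot be told. With a replicate block 56 members fell and 1 rose in the knockout, and 61 were higher and 7 lower in 2i than in FBS. Over all genes tested the block gave 21.4% lower and 23.7% higher in the knockout, and 37.2% higher and 35% lower in 2i.

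Of 3855 values of named genes under an alternative, 3665 kept direction and call, 100 lost the call, 45 gained it and 45 changed sign. Among all members called, 1 changed sign, Ndufs1 in 2i minus FBS with the highest entry per symbol (-0.03). All other sign changes were of values not called in the reported analysis, and 1 of them was called after the change (Atp5md in the knockout without wild type 2i replicate 1). The cause was not tested. The log2 differences were as follows. In the knockout comparison, fibroblast covariate gave Atp5b 0.01, Atp5e 0.05, Atp5md -0.71, Lrpprc 0.00, Ndufaf3 0.00, Ndufaf5 0.06 and Ndufb11 0.05, quantile normalization gave Atp5l 0.01 and Uqcrfs1 0.00, TPM gave Atp5l 0.01, length trend removed gave Atp5l 0.04, highest entry per symbol gave Cox6b2 -0.02 and Ndufv3 -0.01, array weights gave Cox7b2 0.15. Leaving out 1 library at a time gave ranges of Atp5l -0.05 to 0.06, Atp5md -0.27 to 0.59, Cox7b2 -0.38 to 0.02, Ndufaf2 -0.02 to 0.10, Ndufaf5 -0.08 to 0.02 and Ndufv3 -0.02 to 0.08. In 2i minus FBS, length trend removed gave Atp5a1 0.00, Atp5g2 -0.04, Atp5g3 -0.02, Cox4i2 -0.03 and Cox7a2l -0.08, array weights gave Atp5a1 0.04, Atp5c1 0.00, Gfm1 0.00 and Ndufaf7 0.02, fibroblast covariate gave Atp5a1 0.08, Gfm1 0.02, Ndufaf7 0.10 and Tomm5 0.04, quantile normalization gave Gfm1 0.00, highest entry per symbol gave Ndufs1 -0.03. Leaving out 1 library at a time gave ranges of Atp5a1 -0.02 to 0.02, Atp5md -0.74 to 0.13, Cox4i2 -0.03 to 0.21 and Ndufaf7 -0.08 to 0.04. Depth is unknown, so low members cannot be given a counting error.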
